A study of Homo sapiens with 6 samples.

Results

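The genes described here act in the G2 phase of the cell cycle and on the mitotic spindle. The list holds 58 human genes, chosen by name for their known function, with earlier results of these data known. Of these, 57 were tested, among 13599 genes tested in all, and PTTG1 has no probe set (a group of probes summarised to 1 value) with a single gene symbol. Each gene was read on its probe set with the highest mean over the arrays, and the 57 genes have 143 probe sets together, so the remaining probe sets served as a check.

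The study compared TE-1 cells, an established human oesophageal squamous cell carcinoma line grown in RPMI-1640 with foetal bovine serum, with a TE-1 clone carrying a stable knockdown of EIF3C, a subunit of the translation initiation factor eIF3. The control group is the parental TE-1 line, and each group has 3 Affymetrix arrays labelled as biological replicates. The knockdown arrays share 1 clone, and the labels name neither a second clone nor cells with a control construct, so the knockdown and the choice of the clone cannot be told apart. The labels do not say that replicates came from separate cultures, so the p-values reflect the spread among these arrays alone, part of which can be technical.

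Progress through G2 into mitosis is driven by the kinase CDK1 with cyclins A and B, held back by WEE1 and released by the CDC25 phosphatases. Aurora and Polo-like kinases, kinesin motors and kinetochore proteins then build the spindle, and the spindle checkpoint holds the anaphase-promoting complex until chromosomes are attached. Many of these genes are transcribed together late in the cycle under MuvB, B-MYB and FOXM1, through promoter elements that include CCAAT boxes and the cell cycle genes homology region (CHR), and their transcripts are widely read as a measure of proliferation.

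The knockdown could be seen on the target itself. On the brightest of 5 probe sets, shared by EIF3C and its near-identical copy EIF3CL, log2 signals were 10.69, 10.60 and 10.56 in the control arrays and 8.42, 8.40 and 8.49 in the knockdown arrays, which left 22.1% of the control level. Of the other 4, 2 bright ones were left at 22.6% and 21.5%, and 2 dim ones fell by 0.97 and 0.58. Array medians lay between 6.09 and 6.11. Of 12 epithelial markers, 9 had a probe set of their own, and KRT8, KRT18, KRT19, EPCAM and CDH1 were bright in both groups. The basal squamous keratins KRT5 and KRT14 were dim, at control means of 5.91 and 5.85, whereas KRT15 and SFN stood at 8.55 and 10.96. The markers moved in opposite directions: KRT15 fell by 0.92 (adjusted p = 1.51e-11) and KRT19 fell by 0.55, KRT8, CDH1, EPCAM and KRT18 rose by 0.26, 0.23, 0.21 and 0.12, and SFN, KRT5 and KRT14 did not pass. The summed log2 level of the 9 was 93.4 to 93.7 in control and 92.7 to 93.1 in knockdown arrays. Above the filter on dim genes lay 1 of 5 leukocyte, 2 of 7 fibroblast and 4 of 4 endothelial markers, the last at group means no higher than 6.31, and summed levels overlapped between the groups for leukocyte and endothelial markers and were 29.6 to 29.8 against 29.8 to 30.3 for fibroblast markers. Within these lists CDH5 rose by 0.46 (adjusted p = 2.13e-05), and KDR and COL1A1 fell by 0.26 and 0.21 (adjusted p = 0.0296 and 0.0311), all at dim levels. Below the filter, and so without a call, FAP read 3.79, 3.99 and 3.86 in control and 4.74, 4.72 and 4.70 in knockdown arrays. Of the other fibroblast markers there, DCN had a higher mean in knockdown arrays, and COL3A1, LUM and PDGFRA a lower one. The part of these shifts in the results below was not tested. In bulk RNA, a change in the share of cells in G2 and mitosis and a change in RNA per cell cannot be told apart.

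Because many members carry these promoter elements and yet moved in opposite directions, shown here are the 120 bases before the annotated start of 6 genes, in the direction of the gene, from RefSeq promoter sequences of GRCh38.p14. CDC20 (chr1:43358861-43358980, plus strand), PRC1 (chr15:90994536-90994655, minus strand) and CCNB1 (chr5:69167030-69167149, plus strand) were higher in knockdown cells, and CCNA2 (chr4:121823884-121824003, minus strand) and KIF20A (chr5:138178992-138179111, plus strand) were lower. MKI67 (chr10:128126424-128126543, minus strand) was higher on 1 probe set and lower on 5. Capitals mark a CHR core, searched on both strands as TTTGAA and as the palindromic form TTCGAA, or a CCAAT box, searched on both strands, where a box on the opposite strand reads ATTGG. Other forms of the CHR were not searched, among them CTTGAA, which stands unmarked in the CCNA2 stretch.
CDC20: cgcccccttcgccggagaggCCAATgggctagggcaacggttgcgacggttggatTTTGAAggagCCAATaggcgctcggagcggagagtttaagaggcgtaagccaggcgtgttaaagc
PRC1: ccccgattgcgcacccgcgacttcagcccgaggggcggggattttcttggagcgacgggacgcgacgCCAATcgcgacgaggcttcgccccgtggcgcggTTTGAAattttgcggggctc
CCNB1: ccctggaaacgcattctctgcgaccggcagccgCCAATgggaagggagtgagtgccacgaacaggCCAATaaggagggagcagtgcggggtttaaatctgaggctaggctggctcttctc
CCNA2: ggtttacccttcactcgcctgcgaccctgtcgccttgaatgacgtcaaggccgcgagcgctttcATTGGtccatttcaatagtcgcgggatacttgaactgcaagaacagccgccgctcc
KIF20A: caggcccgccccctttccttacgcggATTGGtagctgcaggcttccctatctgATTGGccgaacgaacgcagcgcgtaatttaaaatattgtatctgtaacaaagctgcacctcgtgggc
MKI67: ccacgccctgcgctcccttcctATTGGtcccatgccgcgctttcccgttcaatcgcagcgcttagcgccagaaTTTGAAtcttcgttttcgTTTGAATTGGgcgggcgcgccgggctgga

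In MKI67 the second TTTGAA overlaps an ATTGG. Promoter windows from 250 bases before to 50 after the start were matched for 49 of the 58 genes, some with several starts. A CHR core stood in at least 1 window of 37 of these 49 genes (75.5%), against 19.5% of the 27305 genes with a window, and a CCAAT box in 40 (81.6%), against 39.7%. Both stood together in 1 window in 31 genes (63.3%), against 7.85% of all genes. Among the genes matched, a CHR core was found for 27 of the 33 that were higher in knockdown cells and for 6 of the 11 that were lower, and a CCAAT box for 26 and 10. The genes shown above were not picked by a set rule, and CCNA2 and KIF20A are not among the lower genes with a CHR core. The difference between the directions was not tested. A match is a description of the letters and not of a bound site, and a gene without one can hold a form not searched.

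Members of the list went both ways in knockdown cells, with more rises than falls, and most changes were small. Of 57 genes tested, 37 rose and 13 fell (limma, Benjamini-Hochberg adjusted p under 0.05 over all genes), and 7 did not pass. Over all genes tested 66.5% passed in either direction, 32.4% higher and 34.1% lower, against 64.9% higher and 22.8% lower among the members. The same shares over all genes stand beside the counts per role below. The median difference of the 57 genes was 0.17 on the log2 scale and that of all genes tested was -0.03. Larger changes were about as frequent as elsewhere: 7 members (12.3%) rose and 7 (12.3%) fell by 0.5 or more, against 11.4% and 10.4% of all genes tested. At least 2-fold changes were found for 4.82% of genes tested and for 1 member, CCNA2.

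The groups did not overlap for 50 of the 57 members, where 70.3% of all genes tested did not overlap. The shares over all genes, here, above and below, were not matched for signal, and the members were brighter than many genes tested. The lowest mean of a member was 6.42, where the lowest mean kept was 4.635. With the dimmest 50% of genes dropped, 56 of the 57 members remained. Whether the members differ from genes of similar signal was not tested. Replicates lay close together, with a median SD of 0.05 in control and 0.04 in knockdown arrays over the members. For scale, the differences of 85 probe sets for non-human control RNA ran from -0.22 to 0.20, and 14 of the 50 members that passed lay within that size.

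**Figure D1:**
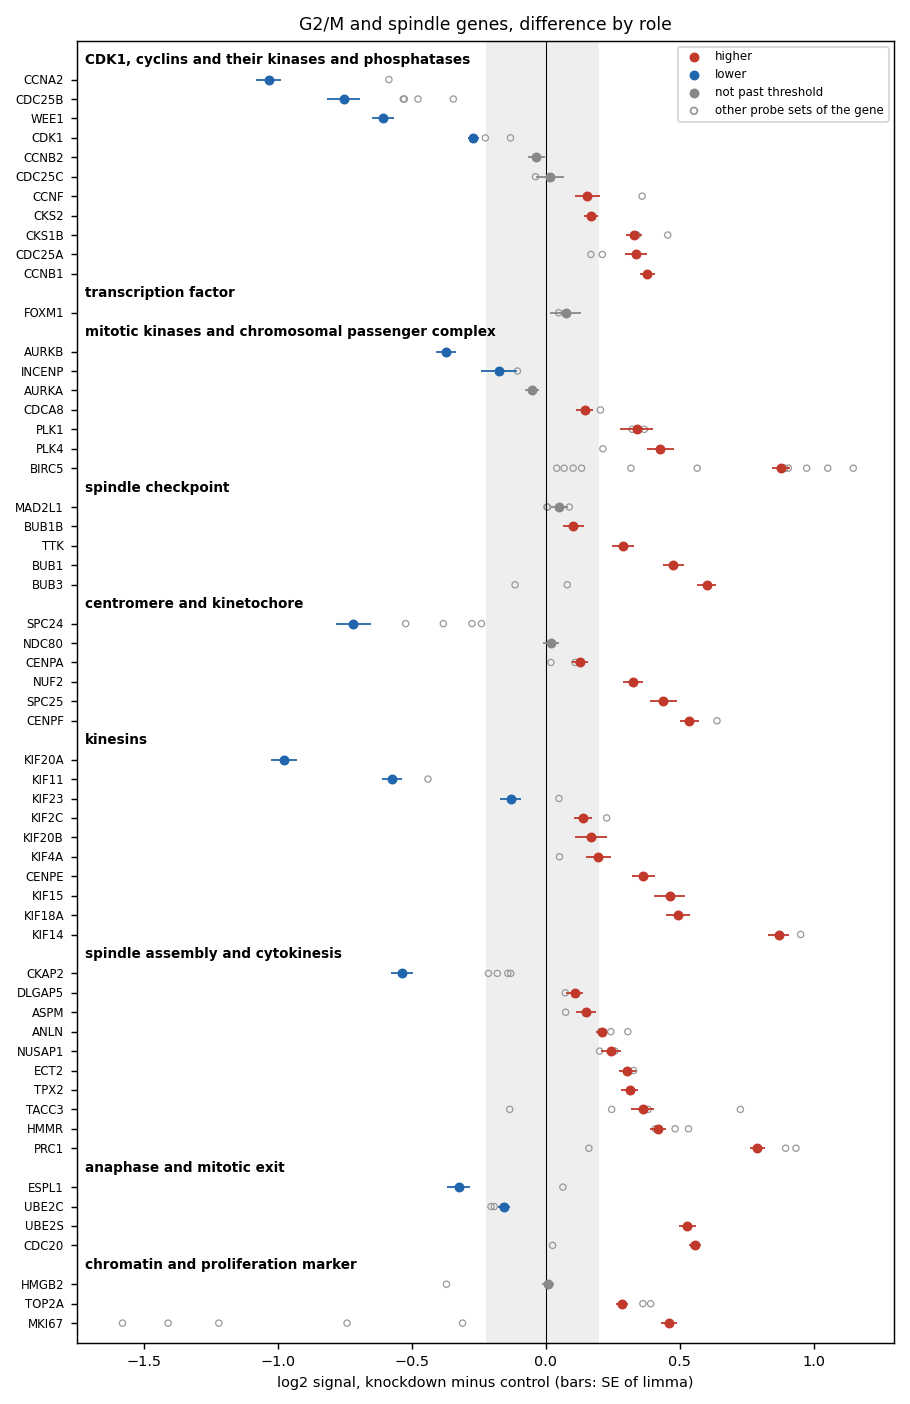
Difference in log2 signal, knockdown minus control, for the 57 genes tested, grouped by role. Filled points are the probe set used for each gene with its SE, coloured by call, open points are the gene's other probe sets, and the grey band spans the differences of the non-human control probe sets, -0.22 to 0.20; CCNA2 and KIF20A lie farthest left among the filled points and BIRC5 and KIF14 farthest right, and the open points of MKI67 reach -1.58.

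Among CDK1, its cyclins and their regulators, cyclin A2, CDC25B, WEE1 and CDK1 fell, while cyclin B1, CDC25A, CKS1B, CKS2 and cyclin F rose. Of these 11 genes, 5 were higher (45.5%) and 4 lower (36.4%), the latter near the 34.1% of all genes tested. CCNA2 encodes cyclin A2, which activates CDK2 in S phase and CDK1 in G2. Its log2 signals were 9.56, 9.58 and 9.40 in control and 8.44, 8.54 and 8.47 in knockdown arrays. Every knockdown array lay below every control array, a 2.05-fold fall (difference -1.03, SE 0.05, adjusted p = 3.54e-12), and the second probe set also fell, by 0.59. The phosphatase gene CDC25B, which helps to start CDK1 activation, read 8.19, 8.15 and 8.08 in control and 7.46, 7.24 and 7.46 in knockdown arrays, a 1.69-fold fall seen on 5 of 5 probe sets (adjusted p = 6.7e-09). WEE1, the kinase that restrains CDK1, went down from 9.19, 9.15 and 9.05 to 8.54, 8.53 and 8.51 (1.52-fold, adjusted p = 6.9e-10). An activator and an inhibitor of CDK1 thus fell side by side.

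CDK1 itself differed less. Its signals of 11.62, 11.65 and 11.65 in control arrays and 11.36, 11.40 and 11.35 in knockdown arrays left 82.9% of the control level (adjusted p = 8.19e-09), and 3 of 3 probe sets fell, by 0.13 to 0.27. CCNB1, the main mitotic cyclin, moved the other way, from 9.93, 9.92 and 9.89 to 10.29, 10.30 and 10.28, a rise of 0.38 (SE 0.03, adjusted p = 1.68e-09). Its paralogue CCNB2 did not pass, with a difference of -0.04 and a 95% interval of -0.10 to 0.03 (adjusted p = 0.349). CDC25A rose by 0.34 on its brightest probe set and on 3 of 3 in all, and CDC25C, the third phosphatase, stood at 0.02 with an interval of -0.10 to 0.13 (adjusted p = 0.797). The 3 phosphatase genes therefore gave a rise, a fall and no call, although the difference between them was not tested. The small CDK-binding proteins CKS1B and CKS2 rose by 0.33 and 0.17, and CCNF, which marks proteins for degradation in G2, by 0.15.

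FOXM1, a transcription factor of G2/M genes, did not pass. Control arrays read 8.69, 8.45 and 8.41 and knockdown arrays 8.61, 8.61 and 8.55, so the groups overlapped, and control replicate 1 lay above both other controls. The difference was 0.07 with an interval of -0.05 to 0.20 (adjusted p = 0.284), and its 3 probe sets ran from 0.05 to 0.07. Without control replicate 1 the difference was 0.16 and passed (adjusted p = 0.00429).

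**Figure D2:**
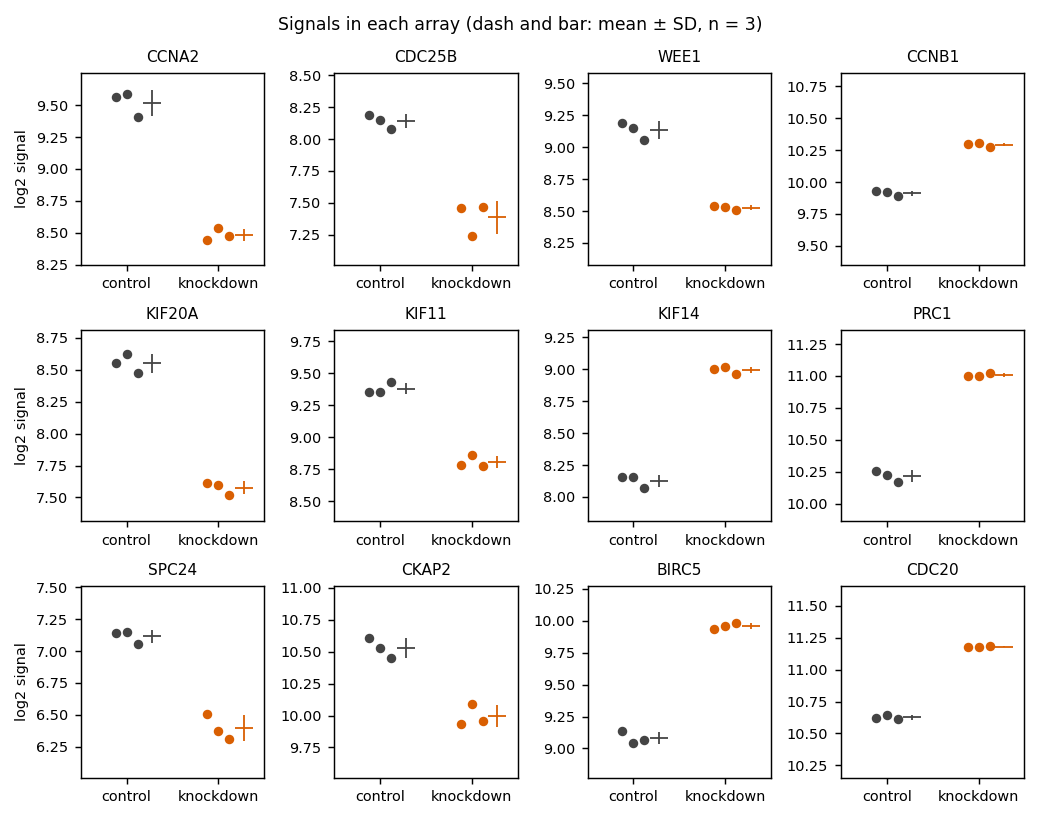
Log2 signal in each array for 12 genes of the list, with each panel spanning the same range of 1.5 log2 units; points are single arrays in order of replicate number, and the dash and bar give the mean and SD of 3 arrays. In none of these 12 genes do control and knockdown arrays overlap. All but CCNB1 were taken from members picked for a large change without overlap, so this follows from the choice. Over all genes tested, 70.3% did not overlap.

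The mitotic kinases and the chromosomal passenger complex, which corrects attachments at the centromere and later guides cytokinesis, were split as well. Of 7 genes, 4 rose (57.1%) and 2 fell (28.6%). BIRC5, or survivin, rose most of all 57 members, from 9.14, 9.04 and 9.06 to 9.94, 9.96 and 9.98. That is a 1.84-fold rise (difference 0.88, SE 0.03, adjusted p = 5.09e-13), and 9 of 12 probe sets rose, with differences over the 12 of 0.04 to 1.15. AURKB, the kinase of the same complex, fell from 9.11, 9.10 and 9.10 to 8.78, 8.70 and 8.72, to 77.3% of control (adjusted p = 7.64e-08). The scaffold INCENP fell by 0.17 (adjusted p = 0.0326) and the borealin gene CDCA8 rose by 0.14 (adjusted p = 0.00104). Subunits of the complex therefore fell in 2 cases and rose in 2. The fall of INCENP is the least secure, since it did not pass when any of 3 arrays was left out, namely control replicate 3 (adjusted p = 0.101), knockdown replicate 1 (0.137) or knockdown replicate 3 (0.0662).

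Both Polo-like kinases rose. PLK1, which acts from mitotic entry to cytokinesis, read 7.38, 7.28 and 7.39 in control and 7.64, 7.82 and 7.59 in knockdown arrays, a rise of 0.34 on its main probe set and on 3 of 3 probe sets (adjusted p = 0.000115). PLK4, which starts centriole duplication, rose by 0.43, from 7.87, 7.99 and 8.02 to 8.38, 8.46 and 8.32 (adjusted p = 1.02e-06). It passed on 1 of 2 probe sets. AURKA, the Aurora kinase of spindle poles, stood at -0.05 with an interval of -0.11 to 0.00 and did not pass (adjusted p = 0.0958), although its groups did not overlap. Under quantile normalization it passed as lower, at -0.09, as did CCNB2 at -0.09.

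Genes of the spindle checkpoint rose in 4 of 5 cases (80%) and none fell. BUB1, a checkpoint kinase of the kinetochore, went up from 8.67, 8.68 and 8.61 to 9.13, 9.18 and 9.07 (1.39-fold, adjusted p = 1.13e-08). TTK, also known as MPS1, which starts checkpoint signalling, rose by 0.29, from 8.64, 8.69 and 8.55 to 8.91, 8.94 and 8.90 (adjusted p = 7.46e-06). BUB1B, or BUBR1, rose by 0.10 (adjusted p = 0.0292), and MAD2L1 stood at 0.05 with an interval of -0.02 to 0.12 (adjusted p = 0.183). BUB1B did not pass when control replicate 3 (adjusted p = 0.119), knockdown replicate 2 (0.0643) or knockdown replicate 3 (0.094) was left out.

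BUB3, which carries BUB1 and BUBR1 to the kinetochore, had the largest checkpoint rise but rests on 1 of 3 probe sets. On the one used, control arrays read 9.55, 9.68 and 9.64 and knockdown arrays 10.19, 10.27 and 10.21, a 1.51-fold rise (adjusted p = 1.33e-10). The next, nearly as bright, read 9.92, 9.83 and 9.79 against 9.95, 9.92 and 9.91 and did not pass (difference 0.08, adjusted p = 0.0761 in a fit over all probe sets, where 48.2% passed). The third was called lower, at -0.11 (adjusted p = 0.0372). Leaving out any 1 knockdown array made the second probe set the brightest, and BUB3 then stood at 0.07 to 0.09 and did not pass (adjusted p = 0.0727 to 0.142).

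At centromeres and kinetochores, 4 of 6 genes rose (66.7%) and 1 fell (16.7%). The exception was SPC24, at 7.14, 7.15 and 7.05 in control and 6.51, 6.38 and 6.31 in knockdown arrays, a 1.64-fold fall found on 5 of 5 probe sets (adjusted p = 3.96e-08). SPC24 and SPC25 form 1 end of the NDC80 complex, which joins kinetochores to microtubules, and NDC80 and NUF2 form the other. SPC25 rose by 0.44, from 7.85, 7.94 and 7.74 to 8.27, 8.26 and 8.31 (adjusted p = 7.54e-07), and NUF2 rose by 0.33 (adjusted p = 7.35e-07). NDC80 stood at 0.02 with an interval of -0.04 to 0.08 (adjusted p = 0.564). The 4 genes of the complex thus gave 2 rises, 1 fall and 1 without a call. CENPF, a large protein of the outer kinetochore, rose 1.45-fold, from 9.24, 9.15 and 9.20 to 9.68, 9.78 and 9.73 (adjusted p = 5.88e-10), and both its probe sets rose. CENPA, the histone variant that marks centromeres, rose by 0.13 (adjusted p = 0.00101), on 3 of 4 probe sets.

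All 10 kinesins passed the test, 7 higher (70%) and 3 lower (30%). Of all genes tested 66.5% passed, 32.4% higher and 34.1% lower, so the share of falls was near that of all genes. KIF20A, a motor of the central spindle needed for cytokinesis, had the second largest fall of the list, from 8.55, 8.62 and 8.48 to 7.61, 7.60 and 7.52. It was left at 50.8% of control (difference -0.98, SE 0.05, adjusted p = 1.6e-11) and has 1 probe set. KIF11, or Eg5, which pushes spindle poles apart, fell from 9.35, 9.36 and 9.43 to 8.78, 8.86 and 8.77 (1.49-fold, adjusted p = 4.75e-10), with 2 of 2 probe sets lower. KIF15, which can share that work with KIF11, rose by 0.46 (adjusted p = 2.06e-06).

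KIF14, a midbody motor, rose 1.83-fold, from 8.15, 8.15 and 8.07 to 9.00, 9.02 and 8.97 (adjusted p = 5.59e-12), and its second probe set rose by 0.95. The plus-end motor KIF18A, which damps chromosome movements, rose by 0.49, and CENPE, which carries chromosomes to the spindle equator, by 0.36. Smaller rises were found for KIF4A (0.20, on 1 of 2 probe sets), KIF20B (0.17) and the microtubule depolymerase KIF2C (0.14). KIF23, a component of centralspindlin, was called lower at -0.13 with overlapping groups (adjusted p = 0.00678), and its second probe set stood at 0.05. KIF20B did not pass when control replicate 3 (adjusted p = 0.0683) or knockdown replicate 2 (0.105) was left out.

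Spindle assembly and cytokinesis genes had the highest share of rises among the roles, with 9 of 10 higher (90%) and 1 lower. PRC1, which bundles the antiparallel microtubules of the central spindle, read 10.26, 10.23 and 10.17 in control and 11.00, 11.00 and 11.03 in knockdown arrays. This 1.73-fold rise (difference 0.79, SE 0.03, adjusted p = 1.71e-13) was seen on 3 of 4 probe sets. HMMR, a hyaluronan receptor that also binds spindle microtubules, rose by 0.42, from 9.61, 9.60 and 9.59 to 9.99, 10.04 and 10.02 (adjusted p = 9.6e-10), on 4 of 4 probe sets. The remaining rises were those of TACC3 (0.36) and TPX2 (0.31), which act with Aurora A, the RhoA activator ECT2 (0.30), NUSAP1 (0.24), the contractile ring scaffold ANLN (0.21), the pole protein ASPM (0.15) and DLGAP5 (0.11). Of these, ANLN rose on 4 of 4 probe sets, NUSAP1 on 3 of 3 and ECT2 on 2 of 2, and TPX2 has 1 probe set. TACC3 rose on 5 of 6, with the last at -0.13 and not passing, and ASPM and DLGAP5 rose on 1 of 2 each. The rises of ANLN, ASPM and DLGAP5 were within the size of the largest control probe set difference, 0.22.

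CKAP2, a microtubule-binding protein of the spindle, was the member of this group that fell. Signals of 10.61, 10.53 and 10.46 in control and 9.94, 10.09 and 9.96 in knockdown arrays gave a 1.45-fold fall (adjusted p = 4.86e-09). All 5 probe sets fell, but the others only by 0.13 to 0.21, and leaving out any 1 control array made another of them the brightest, with CKAP2 then at -0.18 to -0.11.

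Genes of anaphase and mitotic exit were evenly split, with 2 higher and 2 lower (50% each). CDC20, the activator of the anaphase-promoting complex (APC/C), rose from 10.62, 10.64 and 10.61 to 11.18, 11.17 and 11.19 (1.47-fold, adjusted p = 1.4e-12), and 2 of 3 probe sets rose. Both ubiquitin-conjugating enzymes that work with the complex were measured and went opposite ways. UBE2S, which extends the chains, rose by 0.53, from 10.62, 10.71 and 10.67 to 11.16, 11.15 and 11.27 (adjusted p = 2.24e-10). UBE2C, which starts them, was lower on 4 of 4 probe sets, by 0.16 to 0.20 (adjusted p = 1.23e-05 on the brightest).

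Separase, encoded by ESPL1, which cleaves cohesin at anaphase, fell from 8.74, 8.62 and 8.64 to 8.35, 8.35 and 8.34, to 79.8% of control (adjusted p = 2.46e-06). Its second, dim probe set stood at 0.06. The gene of its inhibitor securin, PTTG1, was read only on a probe set shared with the pseudogene PTTG3P, where control arrays gave 10.18, 10.24 and 10.23 and knockdown arrays 10.31, 10.36 and 10.32. That difference of 0.11 passed in the fit over all probe sets (adjusted p = 0.00353) and is not counted among the members above.

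The most used proliferation marker of the list, MKI67, gave opposite answers on its probe sets. Ki-67, its product, coats mitotic chromosomes. On the brightest probe set, control arrays read 9.30, 9.30 and 9.31 and knockdown arrays 9.77, 9.73 and 9.79, a 1.38-fold rise (adjusted p = 6.52e-10). On the next, they read 9.06, 8.94 and 8.90 against 7.45, 7.36 and 7.36, a fall of 1.58 (adjusted p = 2.23e-12 in the fit over all probe sets). The other 4 fell too, by 0.31, 0.74, 1.22 and 1.41. All 6 differences passed, and in none of the 6 did the groups overlap, so the direction given for MKI67 depends on the probe set chosen. The mean of its probe sets gave -0.80 (adjusted p = 4.35e-09). Where each probe set lies on the transcript is not given in the sources used here.

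TOP2A, the topoisomerase that untangles chromosomes before anaphase, rose by 0.28, from 11.77, 11.72 and 11.71 to 11.98, 12.03 and 12.03 (adjusted p = 8.4e-09), and 3 of 3 probe sets rose, by up to 0.39. HMGB2, a chromatin protein abundant in dividing cells, stood at 0.01 with an interval of -0.04 to 0.05 (adjusted p = 0.78). A dim second probe set of HMGB2 was lower by 0.37.

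**Figure D3:**
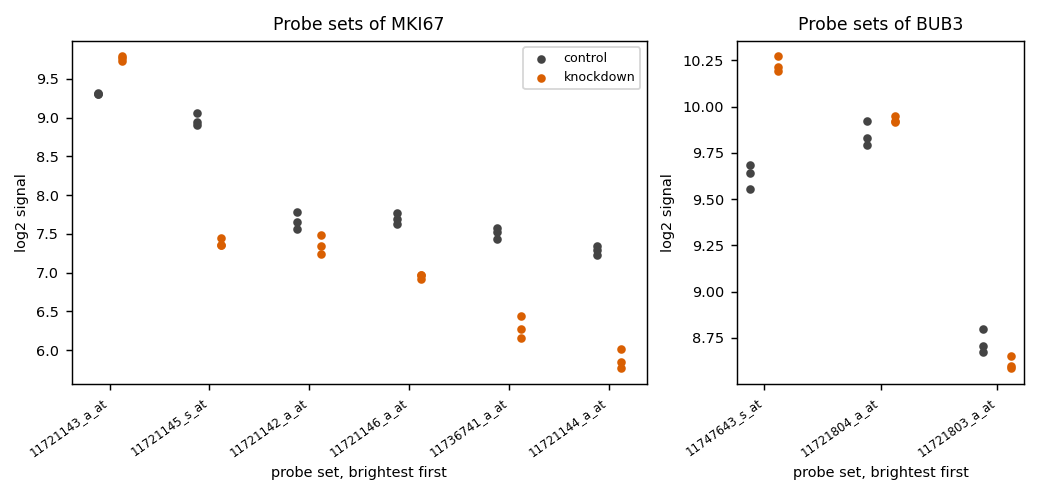
Log2 signal of every probe set of MKI67 (left) and BUB3 (right) in each of 6 arrays, ordered by mean signal; each point is 1 array. For MKI67 the brightest probe set lies higher in knockdown than in control arrays and the 5 others lie lower, and for BUB3 the first is higher, the second overlaps and the third is slightly lower.

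Apart from MKI67 and BUB3, no called member had a probe set called the opposite way. Among 34 called members with more than 1 probe set, these 2 make 5.88%, against 11.2% of 6800 such genes on the array. In 20 of the 34 (58.8%) every probe set was called in the same direction, against 41.9% of all such genes. In the remaining 12, some probe sets did not pass.

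Other genes of the same pathways, from lists of 126 genes that are not members, were called higher in 73 of 124 cases (58.9%) and lower in 28 (22.6%). Over all genes tested the shares were 32.4% and 34.1%. The median difference of the 124 genes was 0.23. Condensin subunits, which compact mitotic chromosomes, rose in 7 of 8 cases and fell in 0, led by SMC2 (0.47), NCAPH2 (0.42) and NCAPD3 (0.42). Other spindle and cytokinesis genes rose in 19 of 27 cases and fell in 2, and other kinetochore and centromere genes rose in 17 of 27 and fell in 5. The largest of these rises were those of the augmin subunits HAUS6 (1.13) and HAUS8 (0.83) and of CKAP2L (0.70), and of MIS18A (1.19), which helps to load CENPA, SKA3 (0.95) and ZW10 (0.93). APC/C genes were split, with 7 of 16 higher (43.8%) and 6 lower (37.5%), and ANAPC13 (1.04), CDC26 (0.84) and CDC27 (0.63) changed most. Cohesin and its regulators were also split, at 5 higher and 5 lower of 13 (38.5% each), near the shares over all genes. The cohesin protector SGO1 (0.94), STAG1 (0.68) and STAG2 (0.51) rose.

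Further regulators of mitotic entry rose in 8 of 16 cases (50%) and fell in 5 (31.2%). CCNH, the cyclin of the CDK-activating kinase, rose by 1.43, and its partners MNAT1 and CDK7, named here after their values were seen, by 1.09 and 0.63. ARPP19, an inhibitor of the phosphatase PP2A in mitosis, fell by 1.27, and PPP2R1A, a PP2A scaffold, fell by 1.22. In the list for MuvB, DREAM and B-MYB, which also holds E2F factors and RB1, 10 of 17 genes rose (58.8%) and 5 fell (29.4%). Whether these factors control the members in these cells was not tested. MYBL1, a relative of B-MYB, rose by 1.48, E2F5 by 1.14 and TFDP2 by 0.99.

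**Figure D4:**
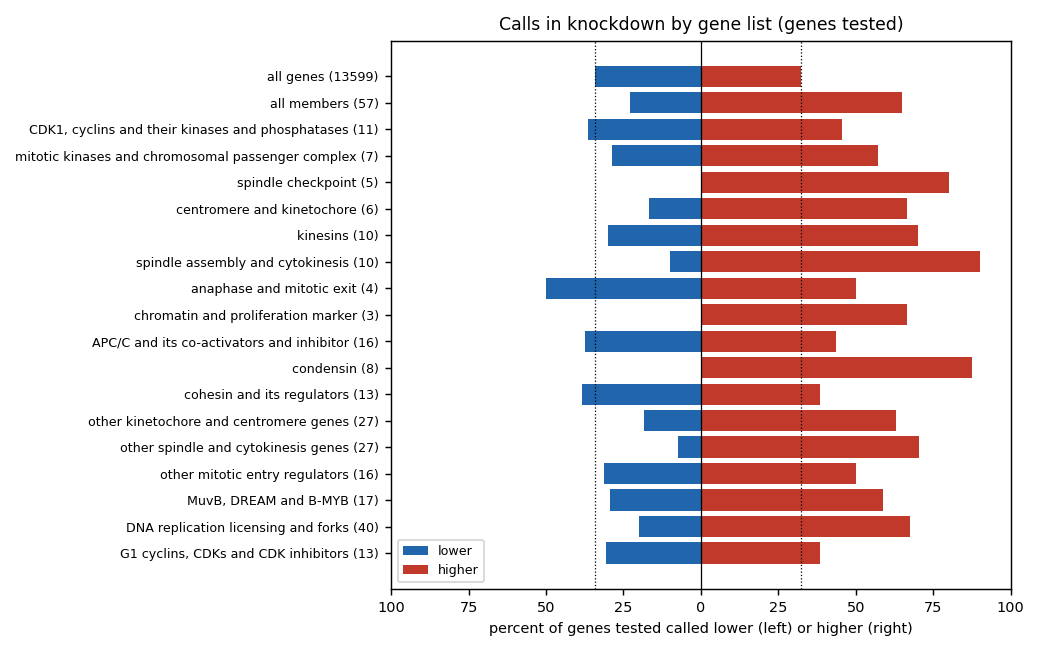
Percent of genes tested that were called higher (right, red) or lower (left, blue) in knockdown cells for all genes, for the members by role and for the other lists, with the number tested in brackets; dotted lines mark the shares over all genes, 32.4% higher and 34.1% lower. The members as a whole reach 64.9% higher and DNA replication genes 67.5%.

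Genes of earlier cell cycle phases give a comparison. DNA replication genes were called higher in 27 of 40 cases (67.5%) and lower in 8 (20%), with a median of 0.31, and so gave shares close to those of the G2/M and spindle genes. Among them GINS1 fell by 1.34, ORC1 rose by 0.92 and DTL by 0.88. G1 cyclins, CDKs and CDK inhibitors were higher in 5 of 13 cases (38.5%) and lower in 4 (30.8%), with a median of -0.01. These shares were near the 32.4% and 34.1% of all genes tested. In the G1 list CCND2 rose by 1.60 and CDK2 by 0.94, and CDKN2B fell by 0.57. The difference between these lists was not tested.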

How the data were processed

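The authors deposited log2 signals for 49395 probe sets on each array. The submitters' processing notes name MAS5, per the labels without a version, and for background correction and scaling the method is not given in the sources used here. That the scale is log2 was read from the range, 1.95 to 14.1. Array medians were nearly equal and values were used as deposited, so a change common to all genes cannot be measured. Precision is limited by the number of arrays.

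The platform annotation gave 1 symbol for 44988 of 49293 human probe sets, of which 44961 matched a RefSeq gene table. For a gene with several probe sets the one of highest mean over 6 arrays was taken. Of 18132 genes the dimmest 25% were dropped (lowest mean kept 4.635), among them no member. The test was limma 3.58.1 in R 4.3.3 (lmFit, then eBayes with an intensity trend, Benjamini-Hochberg over all genes tested, threshold 0.05), tested on simulated data. EIF3C, PTTG1 and individual probe sets were read from an unfiltered fit of the 49293 probe sets. Lists are given as counts and medians, with no test.

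Members and lists were chosen with earlier results of these data known. Every member was named. Values per array are given for up to 3 members per role with the largest change past the threshold and no overlap, for CDK1, CCNB1, PLK1, AURKB, TOP2A, MKI67 and FOXM1, for members with probe sets called opposite ways, and, beyond that rule, for PTTG1. Of each other list the up to 3 largest changes are named. Alternatives covered the filter (none or 50%), normalization (quantile or median centring), averaged or separate probe sets, the variance model (no trend, robust, array weights), a block for the replicate number, and leaving out single arrays. Same-numbered arrays deviated together with correlations of 0.07, 0.10 and 0.17, where the highest with another number were 0.06, -0.04 and -0.03. The correlations are low, but the same number was the highest each time. Deviations from a group mean cancel within the group, so these comparisons are not independent of one another. The main fit did not take the numbers as pairs, and the fit with the block is given below.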

Additional observations from a re-analysis of the deposited data

How the results depend on the processing

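The counts of members that rose and fell, the counts over all genes, the members' median and EIF3C kept their direction and stayed within 1.5 times, or within the spread between arrays for the median, under every alternative run. Members higher numbered 34 to 38 with 1 array left out and 26 where every probe set of a gene had to pass, and members lower 12 to 13 and 10; the median ran from 0.15 to 0.20. With the replicate block, 37 members were higher and 13 lower, and the block changed no call of a member; it gave 4491 for genes higher in knockdown and 4816 for genes lower in knockdown. Of 57 members, 45 kept call and direction under all 16 alternatives. For this count, the fit over all probe sets read only the probe set already used for each gene. Other probe sets of a gene entered it only through their mean or where another became the brightest, so the 45 do not hold for every probe set. Averaging probe sets turned MKI67 to -0.80 and HMGB2 to -0.18 (both passing) and lost KIF23 and ESPL1 (adjusted p = 0.245 and 0.0704). Quantile normalization lost BUB1B and DLGAP5 (adjusted p = 0.442 and 0.0688). Without the intensity trend BUB1B and KIF23 were lost (0.0752 and 0.0595), and INCENP missed the threshold in the fit over all probe sets (0.0528). Detection calls were not used here, so dim probe sets cannot be called absent.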
